A study of Mus musculus with 96 samples.

Results

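The aquaporins are treated here as a family across the mouse nephron: Aqp1, Aqp2, Aqp3, Aqp4, Aqp5, Aqp6, Aqp7, Aqp8, Aqp9 and Aqp11, 10 of the 54532 genes in the deposited table, taken by symbol. Transcript abundance had been measured by ultra-low input RNA sequencing in glomeruli (GL) and 14 tubule segments dissected from kidneys of male C57BL/6 mice aged 6 to 8 weeks, with free access to water and normal chow per the labels; no treatment is named. The proximal tubule was sampled in its initial convoluted part (PTS1), in the straight part of the cortical medullary rays (PTS2) and in its last part (PTS3). The thin limbs were the descending limb of short loops (DTL1), that of long loops in the outer (DTL2) and inner medulla (DTL3), and the ascending limb (ATL). Farther along lay the thick ascending limb of medulla (MTAL) and cortex (CTAL), followed by the distal convoluted (DCT) and connecting (CNT) tubules. The collecting duct was taken from the cortex (CCD), the outer (OMCD) and the inner medulla (IMCD). The 93 samples came from 53 mice, a mouse being 1 mouse number within 1 segment, and each group held 3 to 5 mice. A mouse gave up to 3 pieces, which were averaged to 1 value per mouse. Levels are in TPM, transcript counts scaled to the same total in each sample, which are scaled by transcript length, so that 1 aquaporin can be set against another within a library. The depth behind each value is unknown, since TPM do not hold it.

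Aquaporins are membrane channels that let water, and in some members glycerol and other small solutes, cross cell membranes along osmotic gradients. In the kidney, AQP1 serves water reabsorption in the proximal tubule and the thin descending limb. Water uptake in the collecting duct passes through AQP2 in the apical membrane of principal cells, whose insertion is governed by vasopressin, and leaves through AQP3 and AQP4 in the basolateral membrane. AQP6 lies in intracellular vesicles of acid-secreting intercalated cells, AQP7 is a glycerol channel of the late proximal tubule, and AQP11 sits in the endoplasmic reticulum of proximal tubule cells. The question put to the data was which of these transcripts each segment held, in what proportion to each other, and where those proportions changed.

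Neighbouring genes in this family had different profiles. On chromosome 15, Aqp2, Aqp5 and Aqp6 are the 3 consecutive genes of the RefSeq list, and on chromosome 4 a small nuclear RNA gene (Gm25637) is the single entry between Aqp7 and Aqp3. RefSeq promoter windows, of 250 bases before and 50 after the start, were found for 9 of the 10 members, in 11 windows. Below are the 250 bases before the start, 5′ to 3′ on the gene's strand, of 3 members whose levels separate along the collecting duct, from RefSeq on GRCm38.p6. Aqp2 lies on the plus strand of chromosome 15 (chr15:99578806-99579055), Aqp6 on the same strand farther along (chr15:99600950-99601199) and Aqp3 on the minus strand of chromosome 4 (chr4:41098184-41098433). The build behind the deposited table is not given in the sources used here. Capitals mark exact matches, on either strand, to 4 motifs: the cAMP response element half-site TGACG, the GATA motif AGATAA, the TATA box TATAAA and the HNF1 half-site GTTAAT.
Aqp2: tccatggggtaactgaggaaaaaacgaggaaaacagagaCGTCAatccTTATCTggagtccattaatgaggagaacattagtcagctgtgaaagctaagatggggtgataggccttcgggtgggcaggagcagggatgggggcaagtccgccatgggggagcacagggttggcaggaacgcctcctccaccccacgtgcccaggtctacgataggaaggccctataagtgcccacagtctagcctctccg
Aqp6: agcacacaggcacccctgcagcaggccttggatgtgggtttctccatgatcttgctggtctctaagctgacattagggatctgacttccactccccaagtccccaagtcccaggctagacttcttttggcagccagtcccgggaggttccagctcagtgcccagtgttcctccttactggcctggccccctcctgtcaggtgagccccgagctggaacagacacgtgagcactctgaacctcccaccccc
Aqp3: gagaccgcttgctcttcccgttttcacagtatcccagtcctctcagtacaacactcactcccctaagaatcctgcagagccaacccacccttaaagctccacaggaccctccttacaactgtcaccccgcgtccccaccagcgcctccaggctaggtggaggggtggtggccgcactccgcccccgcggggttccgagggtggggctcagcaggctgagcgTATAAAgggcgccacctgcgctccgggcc
In Aqp2 the capitals are CGTCA, the half-site read on the other strand, and TTATCT, the GATA motif likewise. Aqp3 holds TATAAA, and in Aqp6 none of the 4 motifs occurs in these bases. Over all 32851 RefSeq windows of 300 bases, TGACG occurs in 20.8%, AGATAA in 11.2%, TATAAA in 13.6% and GTTAAT in 7.1%, so the matches are a description of letters that are common in promoters. The windows of 1 member other than Aqp2, Aqp7, held AGATAA, and no other member window held TGACG.

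The segment labels were set against lists of defining transcripts. Summed proximal markers (Lrp2, Cubn, Slc34a1, Slc5a2, Slc22a6 and Kap) were 11821 to 83464 TPM in the mice of PTS1 to PTS3 and 1049 to 4228 TPM in DTL1. Summed principal cell markers ran from 8299 to 20705 TPM in the mice of CNT, CCD and OMCD, with 6 of 6 genes at a mean of at least 1 TPM. In IMCD the sum was 2487 to 7116 TPM, and 3 of the 6 reached that mean. Intercalated cell markers summed to 3303 to 6885 TPM from CNT to OMCD and to 0.73 to 6.16 TPM in IMCD, where 0 of 7 genes had a group mean of 1 TPM. Odorant and vomeronasal receptor genes, which kidney tubules are not known to use, served as a measure of background: of 1740 such genes, a median of 0 to 4 per sample reached 1 TPM in most groups. It was 32 in PTS1 and 96 in OMCD, and 610 in the glomerulus. The descending limbs had medians of 805 (DTL1), 326 (DTL2) and 475 (DTL3). The 4 ATL mice split, with 17 and 29 such genes in mice 3 and 2 against 576 and 659 in mice 4 and 6. Values of a few TPM in those groups are printed with this background in view. In dissected samples, fewer cells of a type and less RNA per cell cannot be told apart.

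Of the 10 members, 9 passed the filter of 1 TPM in at least 3 mice, and Aqp8 did not. By limma's F-test with Benjamini-Hochberg adjustment over 33793 genes, 9 of the 9 differed among the 15 groups, with adjusted p from 1.68e-06 (Aqp9) to 2.17e-48 (Aqp6). The background is high, since 93.9% of all genes tested passed the same test. The plot of levels by mouse shows 3 blocks. Aqp7, Aqp11 and Aqp1 were in the proximal tubule, and Aqp1 alone was at high level in the descending limb of long loops. Aqp2, Aqp3 and Aqp4 were measured from CNT to IMCD, joined by Aqp6 from CNT to OMCD.

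**Figure D1:**
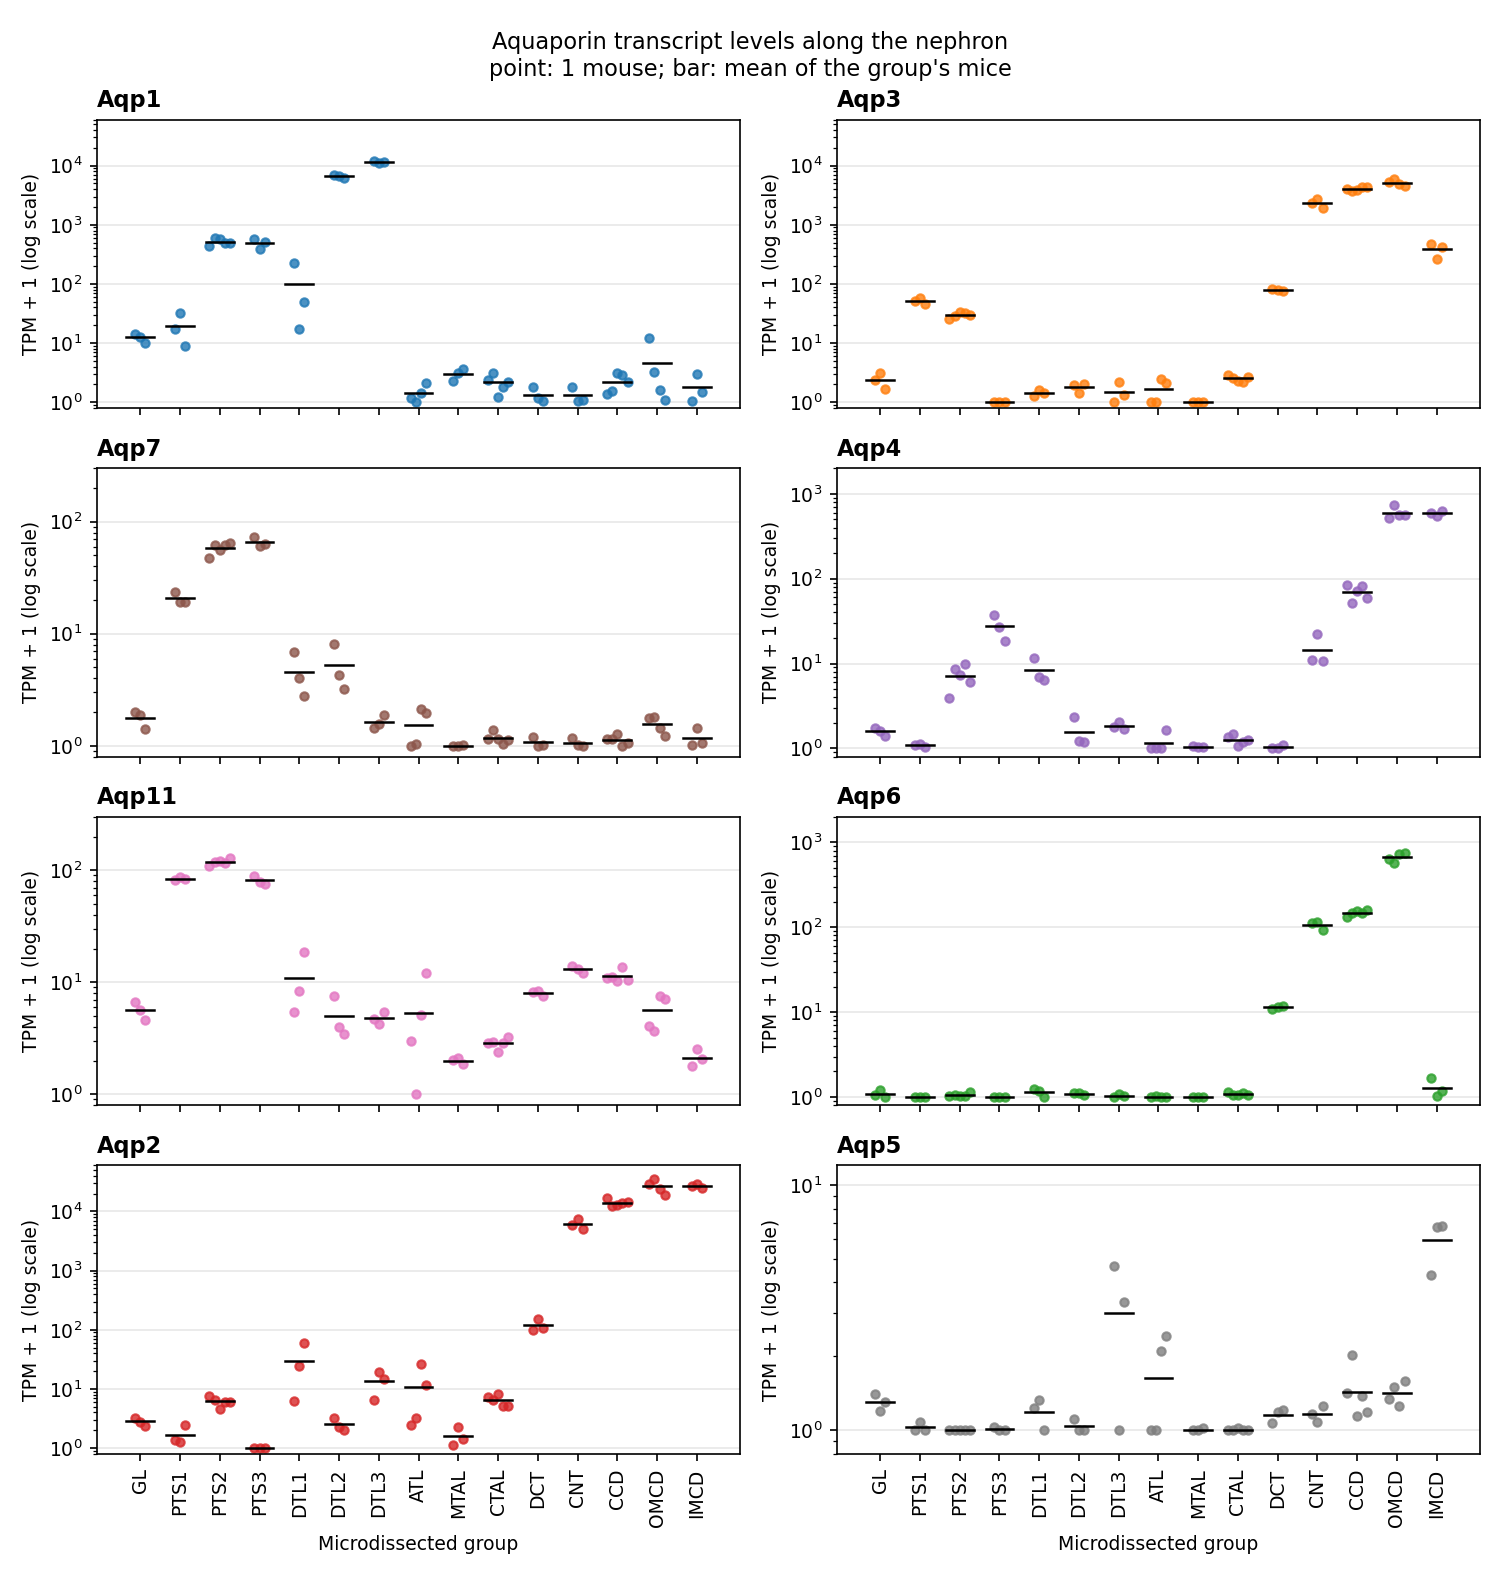
Transcript level of 8 aquaporins (TPM + 1 on a log axis, with different ranges per panel) in the 15 groups in anatomical order. Each point is 1 mouse and each bar the mean of the group's mice. Aqp1 reaches 11647 TPM in DTL3 and 0.427 TPM in ATL, and Aqp6 reaches 666 TPM in OMCD and 0.291 TPM in IMCD.

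By group mean, the amount of aquaporin transcript was highest in the medullary collecting duct and lowest in the thick limb. The 10 members summed to 33181 ± 7312 TPM in OMCD (SD, n = 4), which was 3.32% of all transcripts there, and to 3.77 ± 1.06 TPM in MTAL (n = 3). The sum was 28371 ± 1992 TPM in IMCD, 18240 ± 1989 TPM in CCD and 8645 ± 1668 TPM in CNT. DTL3 held 11668 ± 463 TPM and DTL2 6595 ± 471 TPM, while the short-loop DTL1 held 151 ± 99.9 TPM. PTS2 and PTS3 had 736 ± 77.5 and 667 ± 113 TPM, and PTS1 173 ± 18.7 TPM. The lowest sums were those of GL (23.7 ± 5.05 TPM), ATL (17.6 ± 16.9 TPM), CTAL (10.6 ± 1.62 TPM) and MTAL. The ATL mice ranged from 2.35 to 34.6 TPM, and the lowest of them lay below the lowest MTAL mouse (2.56 TPM). Aqp2, the leading member in ATL, was at 1.46 and 2.26 TPM in mice 2 and 3. It was at 25.1 and 10.6 TPM in mice 4 and 6, those with the high receptor gene background. In 13 of the 16 pairs of groups compared the mice did not overlap in the sum of the 10 members. The overlapping pairs were PTS2 with PTS3, ATL with MTAL and OMCD with IMCD. No p is given for a sum over chosen members.

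A single member carried most of the family's transcripts in most segments. Aqp11 led in PTS1 with 48.2% ± 4.4 of the summed TPM, followed by Aqp3 with 29.2% ± 0.551. Aqp1 took over in PTS2 (70.4% ± 2.28) and PTS3 (74% ± 3.36) and made up 99.8% in both DTL2 and DTL3. Aqp2 led in the distal convoluted tubule with 54.7% ± 5.85 and in CNT with 71.5% ± 0.537. Its share was 76.6% ± 2.07 in CCD, 80.2% ± 2.82 in OMCD and 96.5% ± 0.698 in IMCD. The share of Aqp3 fell off along the same segments, being 36.9% of the sum in DCT and 27% in CNT. It was 22.1% in CCD, then 15.8% in OMCD and 1.37% in IMCD. Shares in DTL1 differed widely between its mice, Aqp1 ranging from 27.5% to 88.1%. In GL, ATL, MTAL and CTAL the shares divide sums that reached at most 34.6 TPM in a mouse.

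**Figure D2:**
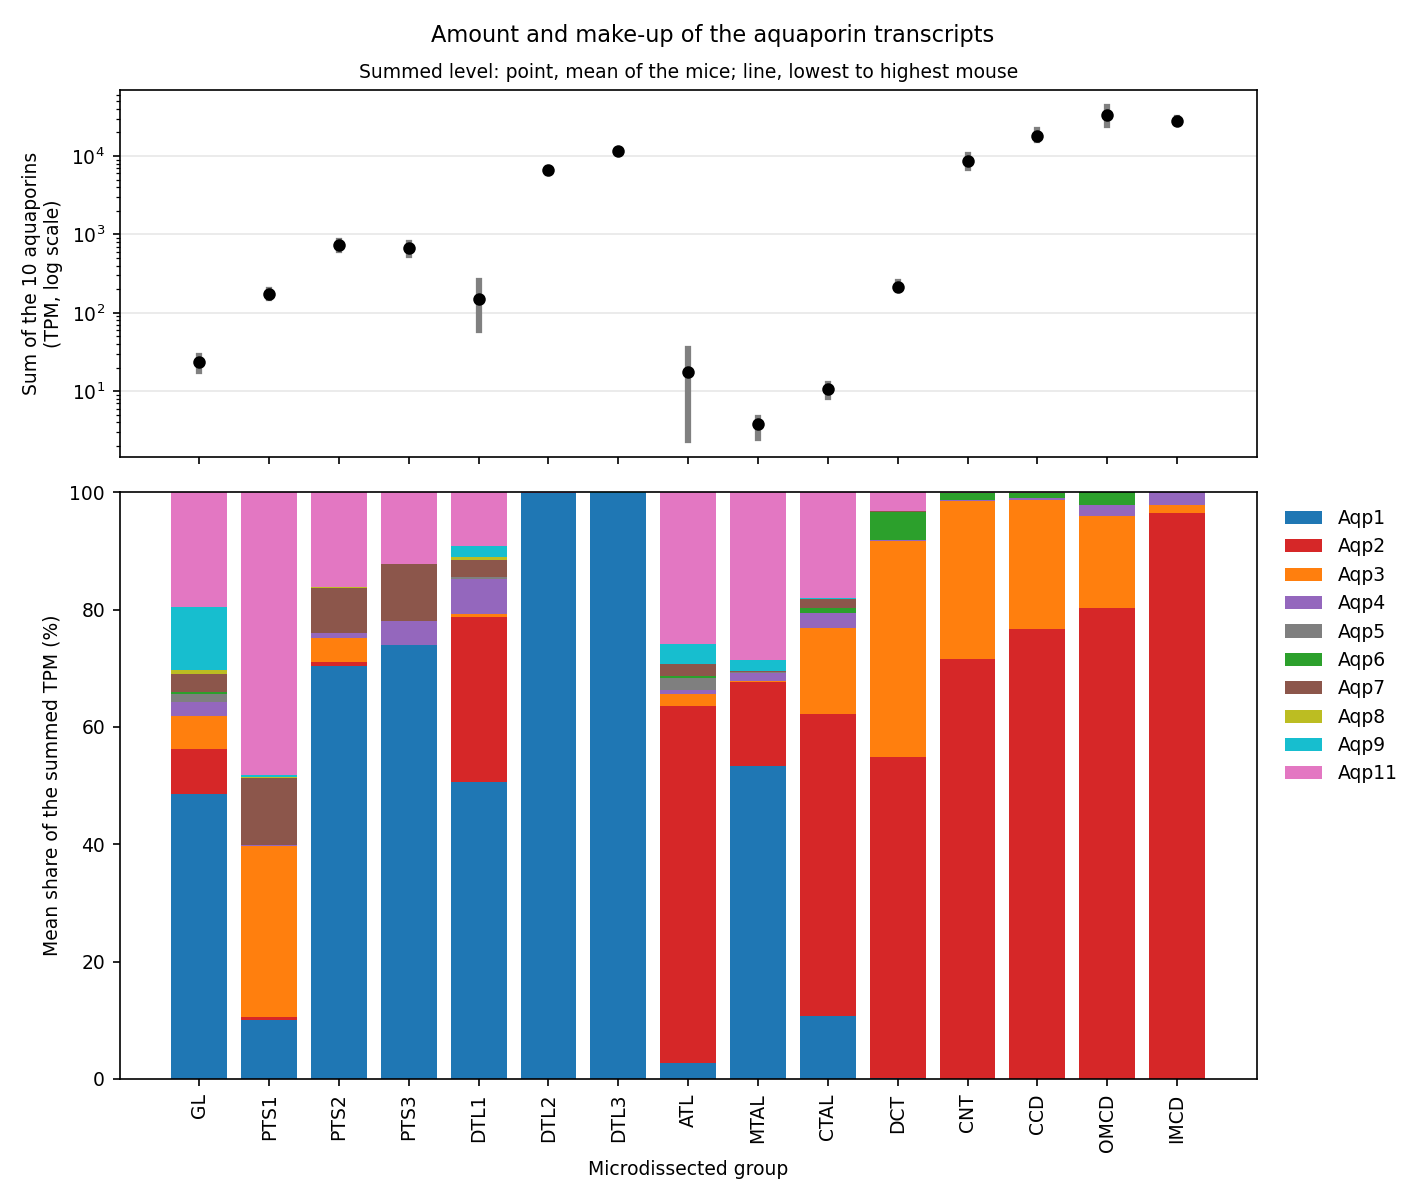
Upper panel, summed TPM of the 10 aquaporins on a log axis, with the mean of the mice as a point and a line from the lowest to the highest mouse. Lower panel, mean share of each aquaporin in that sum in percent, where Aqp1 fills 99.8% of DTL2 and DTL3 and Aqp2 grows from 71.5% in CNT to 96.5% in IMCD.

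Pairs of neighbouring groups were compared by contrasts of the same limma fit, calling a gene at an adjusted p under 0.05 over all genes and a difference of at least 1 in log2(TPM + 1), always later minus earlier. In several pairs the median of all 33793 genes was itself shifted: by -0.96 from GL to PTS1, 1.33 from PTS3 to DTL1, 0.71 from PTS3 to DTL2, -0.54 from DTL1 to DTL2, 0.2 from DTL2 to DTL3, -0.28 from DTL3 to ATL, -0.48 from ATL to MTAL, 0.3 from CCD to OMCD and -0.32 from OMCD to IMCD. The shift was -0.15 from PTS1 to PTS2 and lay within 0.04 of 0 in the 6 remaining pairs. Quantile normalization left it between -0.09 and 0.18, and directions are named below where it turned one. The heat map of differences shows all 16 pairs.

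**Figure D3:**
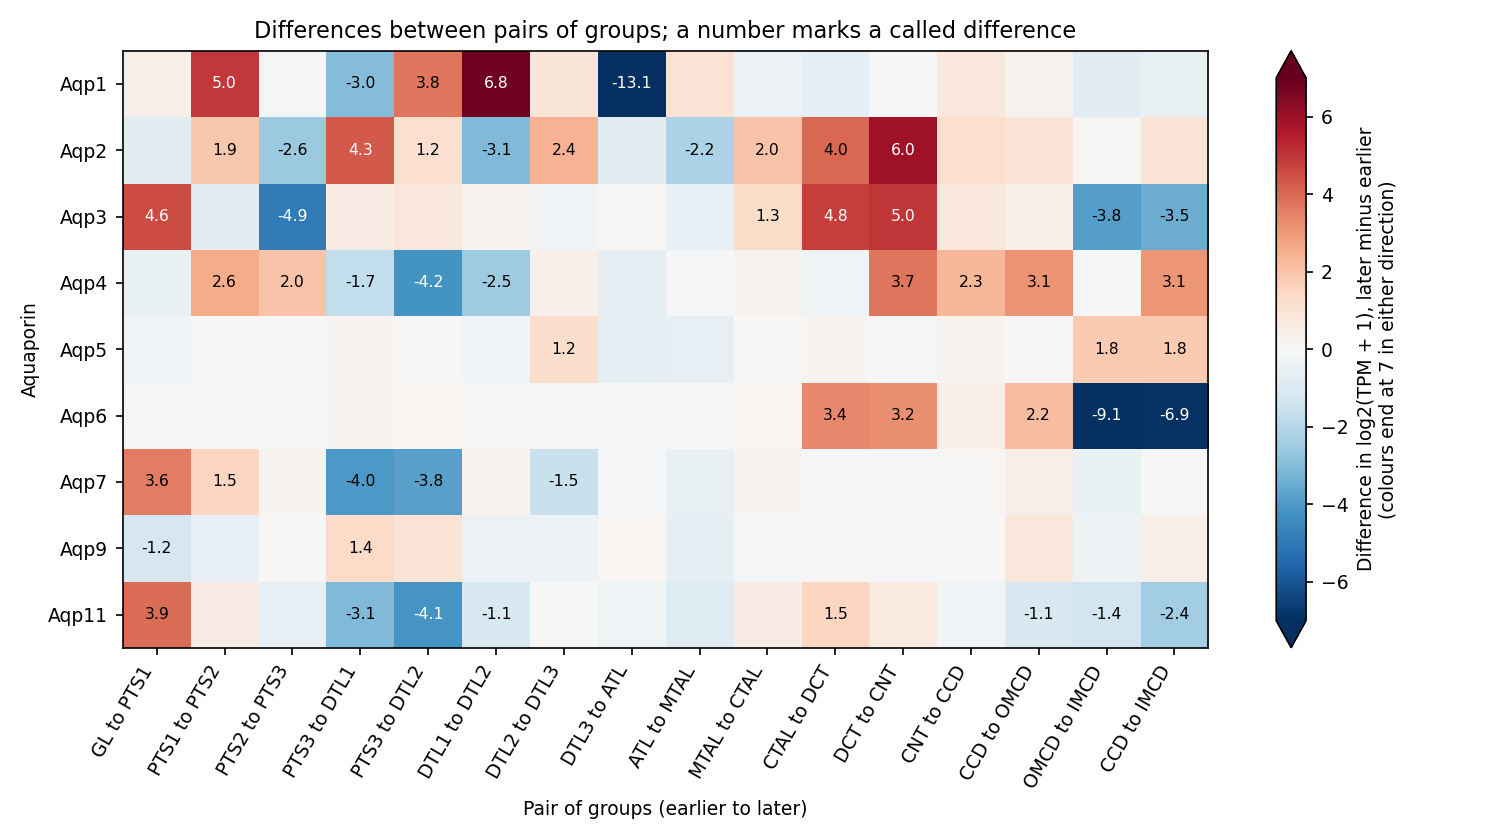
Differences in log2(TPM + 1) between pairs of groups (later minus earlier) for the 9 aquaporins that passed the filter, red where the later group is higher and blue where it is lower. A printed number marks a called difference, the extremes being Aqp1 from DTL3 to ATL (-13.05) and Aqp6 from OMCD to IMCD (-9.10).

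Aqp1 was low at the start of the proximal tubule and high beyond it. The 3 PTS1 mice had 16, 30.8 and 7.94 TPM, while the 5 PTS2 mice had 433, 595, 584, 485 and 498 TPM and the 3 PTS3 mice 582, 390 and 514 TPM. All PTS1 mice lay far below the lowest PTS2 mouse, and PTS2 and PTS3 overlapped. Aqp1 rose from PTS1 to PTS2 by 4.96 (SE 0.46, adjusted p 3.07e-12 by limma), a 28.5-fold difference of mean TPM, and the difference from PTS2 to PTS3 was -0.11 (SE 0.46). Of the proximal markers that were more abundant in PTS2, Slc22a6, an organic anion transporter, had 35.1, 48.3 and 9.42 TPM in PTS1 mice 1, 2 and 3, the order of Aqp1, against a mean of 981 TPM in PTS2. Kap, an androgen-regulated transcript at 36100 TPM in PTS2, had another order, with 742, 15.2 and 3.95 TPM. The early proximal glucose transporter Slc5a2 was at 2761, 2473 and 3141 TPM in those mice. The part of PTS2 tissue in the PTS1 value of Aqp1 was not tested.

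Aqp7 and Aqp11 had their highest levels in the same tubule but not the same profile. Aqp7, the glycerol channel, was at 22.8, 18.3 and 18.3 TPM in the PTS1 mice, at 46.5 to 63.6 TPM in those of PTS2 (median 60.4) and at 72.1, 60 and 62 TPM in PTS3. All PTS1 mice lay below all others of the proximal tubule, and PTS2 and PTS3 overlapped. The rise from PTS1 to PTS2 was 1.48 (SE 0.24, adjusted p 4.47e-06 by limma). Aqp11 was at 80.7, 85.7 and 82.4 TPM in PTS1, at 109 to 127 TPM in PTS2 (median 117) and at 88.5, 78.1 and 74 TPM in PTS3. The 5 PTS2 mice were above every mouse of the other parts, but neither difference was called (0.50, SE 0.37, adjusted p 0.45 from PTS1 to PTS2, and -0.57, SE 0.37, adjusted p 0.569 from PTS2 to PTS3, by limma). Both SEs rest on a spread pooled over all 15 groups. The SD of Aqp11 was 3.08% of the mean TPM in PTS1, 5.73% in PTS2 and 9.28% in PTS3, against 112% in ATL.

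Aqp3, the basolateral channel of the collecting duct, was also measured in the early proximal tubule but not at its end. The PTS1 mice had 51.1, 56.5 and 44.6 TPM, the PTS2 mice 24.9, 27.9, 33.1, 31.6 and 28.7 TPM, and Aqp3 was listed at 0 in 6 of 6 PTS3 samples. The 3 groups did not overlap. The PTS1 to PTS2 difference of -0.80 (SE 0.22, adjusted p 0.00572 by limma) was under the size required for a call, and the fall from PTS2 to PTS3 was called (-4.88, SE 0.22, adjusted p 1.59e-21). Zeros in a table without counts can be failed estimates, and Aqp2, Aqp6, Aqp8 and Aqp9 were also at 0 in 6 of 6 PTS3 samples and Aqp5 in 5 of 6. Of 3794 genes at 10 TPM or more in every sample outside PTS3, 2 were at 0 in any PTS3 sample and 0 in every one.

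Aqp4, the second basolateral channel of the collecting duct, moved the other way. It was at 0.105, 0.135 and 0.04 TPM in the PTS1 mice, at 2.9, 7.58, 6.28, 8.9 and 5.11 TPM in PTS2 and at 36.7, 25.8 and 17.5 TPM in PTS3, again without overlap. It rose by 2.60 and then by 1.98 (SE 0.25 each, adjusted p 6.94e-12 and 3.81e-08 by limma). Aqp2 was low in all 3 parts, with 0.25 to 1.47 TPM in PTS1, 3.57 to 6.55 TPM in PTS2 and 0 in PTS3, and passed the test as a rise of 1.89 (SE 0.47, adjusted p 0.00183) and a fall of 2.58 (SE 0.47, adjusted p 4.86e-05). The rise was not called with a pseudocount of 5 (0.83, adjusted p 0.111). Of the 6 principal cell markers, 5 had the same order of group means as Aqp2: Hsd11b2 was at 0.1, 1.43 and 0 TPM, Scnn1b at 0.252, 0.553 and 0 TPM, and Scnn1g, Kcne1 and Avpr2 were below 0.5 TPM in PTS1 and PTS2 and at 0 in PTS3. The remaining one, Fxyd4, fell off from 42.4 to 5.22 and 0.283 TPM. Their part in the Aqp2 values was not tested. In all, 4 of the 9 tested members were called from PTS1 to PTS2, all higher in PTS2, where 9.57% of all genes were called. From PTS2 to PTS3 it was 3 of 9, with Aqp4 higher and Aqp2 and Aqp3 lower, where 4.7% of all genes were called. The median difference over the 9 members was 0.5 beside -0.15 for all genes in the first pair and -0.08 beside 0 in the second.

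Ratios within a mouse do not depend on how the library was scaled. There were 1.25 Aqp7 transcripts per Aqp1 transcript in PTS1 (geometric mean of 3 mice with 1.43, 0.594 and 2.3), 0.11 in PTS2 and 0.132 in PTS3. Aqp11 outnumbered Aqp1 in PTS1 in 3 of 3 mice, with ratios of 5.06, 2.78 and 10.4, and was below it in PTS2 (0.196 to 0.256) and PTS3 (0.144 to 0.2). All PTS1 mice lay above all others in that ratio. Aqp7 gained on Aqp11 at each step: the ratio was 0.283, 0.214 and 0.222 in PTS1, 0.426 to 0.52 in PTS2 and 0.815, 0.768 and 0.837 in PTS3, with no overlap between the 3 parts. It was 2.03-fold higher in PTS2 than in PTS1 and 1.67-fold higher in PTS3 than in PTS2 (two-sided exact permutation tests, p = 0.0357 each with 3 and 5 mice, adjusted p = 0.0548 over 23 ratio tests). Aqp11:Aqp1 fell 23-fold and Aqp7:Aqp1 11.3-fold from PTS1 to PTS2 in geometric mean, with the same exact permutation p of 0.0357. That is the smallest p these numbers allow. With 3 mice against 3, as from PTS1 to PTS3, no p under 0.1 is possible.

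**Figure D4:**
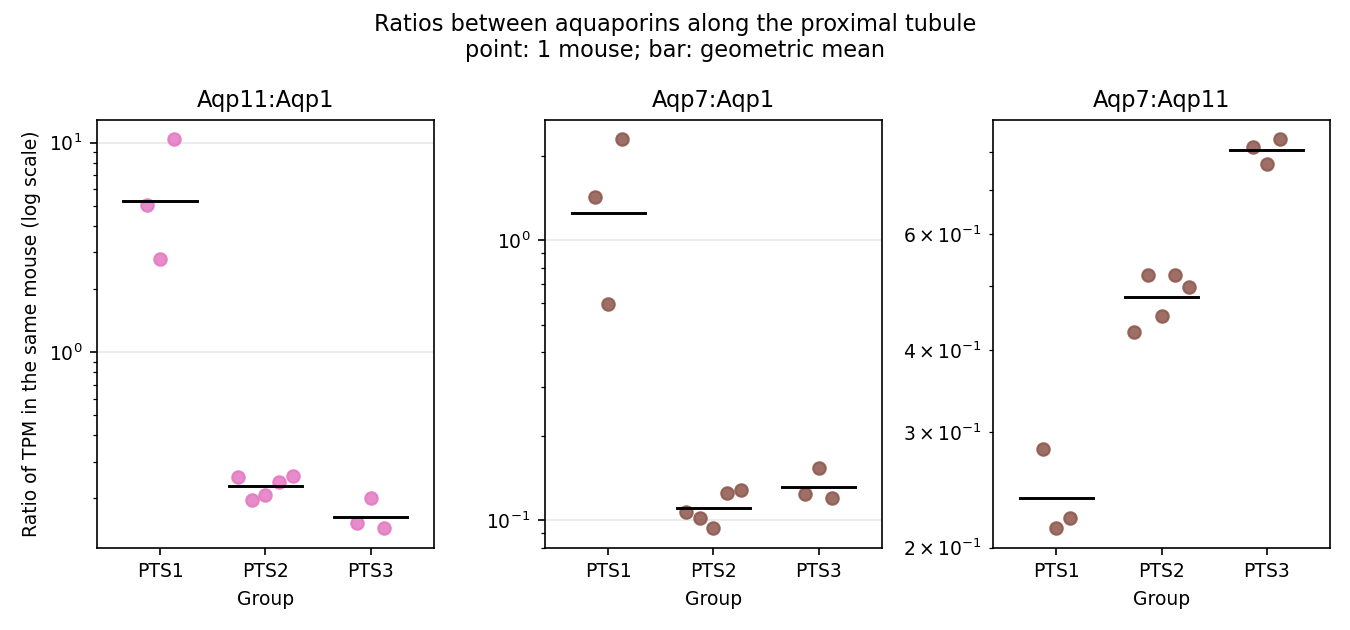
Ratios between 3 aquaporins in PTS1, PTS2 and PTS3 on log axes, each point being 1 mouse and each bar the geometric mean. Aqp11:Aqp1 and Aqp7:Aqp1 drop after PTS1, and Aqp7:Aqp11 climbs from 0.237 to 0.482 and 0.806 with no overlap between the groups.

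Against the glomerulus, 4 of 9 members were called, where 51.9% of all genes were. Aqp3 (4.59, SE 0.25), Aqp7 (3.57, SE 0.27) and Aqp11 (3.93, SE 0.42) were higher in PTS1, with adjusted p from 1.88e-20 to 3.60e-11 by limma. The glomerular mice had 1.35, 2.1 and 0.65 TPM of Aqp3 and 5.7, 4.65 and 3.6 TPM of Aqp11. Aqp9, a channel for glycerol and urea in other tissues, was lower in PTS1 (-1.16, SE 0.33, adjusted p 0.00182), but under quantile normalization the difference was 0.13 (adjusted p 0.773), and its GL level of 1.9 to 2.85 TPM stands beside 412 to 838 receptor genes at 1 TPM in those mice, whose part in it was not tested. Aqp1, which red cells and endothelium also carry, was at 13.4, 11.8 and 9.2 TPM in GL, beside 3265 to 3322 TPM of summed endothelial and 193 to 555 TPM of summed red cell markers without Slc4a1. Their part in the glomerular Aqp1 was not tested. The members' median difference was -0.11 beside -0.96 for all genes.

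The long and short loops parted in Aqp1. The DTL2 mice had 7022, 6629 and 6095 TPM and the DTL3 mice 12081, 11152 and 11708 TPM, against 227, 16.5 and 48.6 TPM in the DTL1 mice. The 3 limbs did not overlap. Aqp1 rose from PTS3 to DTL2 by 3.77 (SE 0.51, adjusted p 2.43e-08 by limma), 13.3-fold in mean TPM. From PTS3 to DTL1 it fell by 3.04 (SE 0.51, adjusted p 1.06e-06), and DTL2 exceeded DTL1 by 6.81 (SE 0.51, adjusted p 1.78e-14). The mice of DTL3 lay above those of DTL2 without overlap, 1.77-fold in the mean, but the difference of 0.84 (SE 0.51, adjusted p 0.269) was not called. That SE rests on a spread pooled over all 15 groups. The SD of Aqp1 was 7.07% of the mean TPM in DTL2 and 4.01% in DTL3, against 116% in DTL1.

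Aqp1 varied widely between the DTL1 mice, as did proximal transcripts. The summed proximal markers were 4228, 1049 and 2297 TPM in DTL1 mice 1, 3 and 5, the same order as Aqp1, and Kap made up most of that sum, at 4198, 1030 and 2266 TPM. Slc22a6 (1.03, 1.66 and 3.88 TPM) and Slc5a2 (14.6, 8.38 and 20.7 TPM) had other orders, and both were low in the adjoining PTS3, at means of 1.45 and 0 TPM. Among the members, Aqp4 and Aqp7 were highest in mouse 1, as Aqp1 was, at 10.7, 5.99 and 5.43 TPM and at 5.92, 2.99 and 1.8 TPM. So was Aqp9, at 3.64, 2.36 and 0.43 TPM, beside 860, 805 and 704 receptor genes at 1 TPM. Aqp2 and Aqp11 were lowest in mouse 1, at 5.19, 23.1 and 58.7 TPM and at 4.43, 7.43 and 17.8 TPM in that order of mice. The urea transporter Slc14a2, which defines this limb, was at 9809, 8804 and 4052 TPM. Endothelial markers summed to 2927 to 3886 TPM in DTL1, 1119 to 2016 TPM in DTL2 and 677 to 1678 TPM in DTL3. Red cell markers without Slc4a1 stayed at or below 1.98 TPM in the mice of all 3 limbs. The parts of proximal tissue and endothelium in the Aqp1 values of these limbs were not tested.

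The other proximal members were lower in the thin limbs. Aqp7 fell from PTS3 to 5.92, 2.99 and 1.8 TPM in DTL1 and 7.17, 3.29 and 2.23 TPM in DTL2 (-4 and -3.8, SE 0.27 each, adjusted p 8.06e-17 and 4.75e-16 by limma). It fell again to 0.44 to 0.875 TPM in DTL3 (-1.54, SE 0.27, adjusted p 3.36e-05). Aqp11 fell by 3.09 into DTL1 and fell by 4.14 into DTL2 (SE 0.42 each, adjusted p 1.28e-08 and 1.22e-11). Aqp4 fell to 10.7, 5.99 and 5.43 TPM in DTL1 (-1.73, SE 0.27, adjusted p 3.71e-07) and to 1.32, 0.21 and 0.18 TPM in DTL2 (-4.21, SE 0.27, adjusted p 1.93e-17). Of the 9 members, 6 were called from PTS3 to DTL1, 2 higher and 4 lower, where 65.5% of all genes were called. From PTS3 to DTL2 it was 5, 2 higher and 3 lower, where 40% were called.

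Aqp2 also differed between the thin limbs, at a level far under that of the collecting duct. Its 0.39 to 3.98 TPM in DTL2 samples compare with 5.61, 18.7 and 13.8 TPM in the DTL3 mice, a rise of 2.41 (SE 0.52, adjusted p 5.86e-04 by limma). Of the principal cell markers, Fxyd4 went from a mean of 14.3 to 1722 TPM and Avpr2 from 1.03 to 16.3 TPM over this step. The other 4 stayed low, Scnn1b at 0.216 and 1.09 TPM, Scnn1g at 0.141 and 0.205 TPM, Hsd11b2 at 0.139 and 0.255 TPM and Kcne1 at 0.0756 and 0.235 TPM. Slc14a2, at 2182 TPM in IMCD, was at 4.63 TPM in DTL2 and 13.4 TPM in DTL3. The part of any of these in the Aqp2 value was not tested. Between DTL1 and DTL2, 4 of 9 members were called (28.2% of all genes), with Aqp1 higher and Aqp2 (-3.11, SE 0.52, adjusted p 7.03e-06), Aqp4 (-2.48, SE 0.27, adjusted p 1.11e-09) and Aqp11 (-1.05, SE 0.42, adjusted p 0.0344) lower. Summed principal cell markers were 49.7, 63.4 and 72.2 TPM in DTL1 mice 1, 3 and 5, the order of Aqp2, and 13.4 to 19.3 TPM in DTL2. Fxyd4 made up most of the DTL1 sum, at 35.5, 44.8 and 68.8 TPM. Avpr2 (10.7, 11.8 and 1.93 TPM) and Scnn1b (0.84, 3.68 and 1.02 TPM) had other orders. The part of principal cell transcripts in the Aqp2 difference was not tested. The Aqp11 mice overlapped, and the call ended without DTL1 mouse 5 (-0.55, adjusted p 0.31), without DTL2 mouse 2 (-0.93, adjusted p 0.105) or 3 (-0.82, adjusted p 0.149), and with a replicate block (-0.91). From DTL2 to DTL3, 3 of 9 were called (9.58% of all genes): Aqp2 and Aqp5 higher and Aqp7 lower. Aqp5 was at 3.65, 0 and 2.33 TPM in DTL3, overlapped with DTL2 (0 to 0.11 TPM), and its call (1.21, SE 0.30, adjusted p 0.00253) ended without DTL3 mouse 1 (0.73, adjusted p 0.0778). The call of Aqp2 from PTS3 to DTL2 (1.2, SE 0.52, adjusted p 0.0462) ended without any 1 mouse of either group, at adjusted p from 0.0603 to 0.109. Likewise Aqp9 from PTS3 to DTL1 (1.36, SE 0.33, adjusted p 2.43e-04) fell under the required size without DTL1 mouse 1, at 0.94. Quantile normalization also ended this call (0.39, adjusted p 0.12 by limma), and the median of all genes rose by 1.33 over that pair.

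Beyond the turn of the loop Aqp1 was near 0. The 4 ATL mice had 0.19, 0.02, 0.42 and 1.08 TPM where the lowest DTL3 mouse had 11152 TPM. The difference of -13.05 (SE 0.48, adjusted p 1.23e-25 by limma) made Aqp1 the 1 member of 9 that was called from DTL3 to ATL, where 14.6% of all genes were called. Without ATL mice 4 and 6, those with the high receptor gene background, 4 of 9 were called, where 31% of all genes were, all lower in ATL: Aqp1 (-13.37), Aqp2 (-2.11), Aqp5 (-1.26) and Aqp11 (-1.4). From ATL to MTAL, 1 of 9 was called in the reported fit, where 28.1% of all genes were. With a pseudocount of 0.1 it was 6, and it was 2 under median ratio rescaling, under quantile normalization and without ATL mouse 3. The share of all genes called under those settings is not given, so no result about the members is drawn from these counts. The member called in the reported fit was Aqp2, at 1.46, 2.26, 25.1 and 10.6 TPM in the ATL mice and 0.115, 1.26 and 0.44 TPM in MTAL (-2.21, SE 0.49, adjusted p 2.82e-04 by limma). With ATL mice 2 and 3 alone the difference was -0.90 (adjusted p 0.167), and 0 of 9 members were called, where 16.2% of all genes were. In the thick limb no member reached 10 TPM in any mouse. Aqp1 was at 1.3 to 2.62 TPM in MTAL and 0.245 to 2.14 TPM in CTAL, and Aqp11 at 0.865 to 1.11 and 1.41 to 2.27 TPM. From MTAL to CTAL, 2 of 9 members were called, where 3.15% of all genes were: Aqp2 rose to 4.12 to 7.06 TPM (2.01, SE 0.47, adjusted p 0.00323) and Aqp3 to 1.21 to 1.87 TPM (1.31, SE 0.22, adjusted p 3.65e-05). Both calls ended with a pseudocount of 5 (0.87, adjusted p 0.157, and 0.38, adjusted p 0.0689 by limma). Of the principal cell markers, Hsd11b2 went from a mean of 0.133 to 2.25 TPM and Fxyd4 from 0.542 to 3.12 TPM over this step. Scnn1b, Scnn1g and Kcne1 were higher too, at 0.553, 0.344 and 0.25 TPM in CTAL, and Avpr2 fell from 137 to 61.7 TPM. Their part in the Aqp2 and Aqp3 values was not tested.

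The collecting duct set appeared in 2 steps. In DCT, Aqp2 was at 97.6, 152 and 108 TPM, Aqp3 at 81.4, 78.9 and 75.8 TPM and Aqp6 at 9.98, 10.4 and 10.7 TPM, each above every CTAL mouse. Differences from CTAL were 4 (SE 0.47, adjusted p 5.39e-09) for Aqp2, 4.84 (SE 0.22, adjusted p 3.69e-22) for Aqp3 and 3.36 (SE 0.13, adjusted p 2.06e-25) for Aqp6 by limma. Aqp11 rose as well, to 7.26, 7.32 and 6.6 TPM (1.49, SE 0.37, adjusted p 0.00478), a call that a pseudocount of 0.1 ended (adjusted p 0.0605). These 4 of 9 members were called where 4.35% of all genes were. Aqp4 was not part of this step, at 0, 0.005 and 0.09 TPM in DCT. Single DCT samples spread more widely than the means of the mice, with Aqp3 from 27.2 to 124 TPM and Aqp2 from 21.8 to 194 TPM over the 6 samples. Principal cell markers summed to 977 to 1037 TPM and intercalated cell markers to 979 to 1086 TPM in the DCT mice, and their part in these values was not tested.

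In CNT all 4 collecting duct members were higher than in DCT. Aqp2 was at 5997, 7504 and 5056 TPM, Aqp3 at 2304, 2756 and 1920 TPM, Aqp6 at 112, 115 and 92.8 TPM and Aqp4 at 9.88, 21 and 9.82 TPM. The rises from DCT were 5.96 (SE 0.52, adjusted p 2.75e-12), 5 (SE 0.25, adjusted p 2.07e-20), 3.25 (SE 0.14, adjusted p 1.94e-22) and 3.73 (SE 0.27, adjusted p 1.31e-14) in that order by limma. In mean TPM, Aqp2 was 52-fold, Aqp3 29.6-fold and Aqp6 10.3-fold higher. These 4 of 9 members were called where 5.22% of all genes were, and the members' median difference was 0.71 beside 0.02 for all genes.

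Along the collecting duct the 4 members went separate ways. Aqp2 was at 17021, 12274, 12633, 13781 and 14306 TPM in the CCD mice, at 29290, 34804, 23813 and 19190 TPM in OMCD and at 27334, 29536 and 25310 TPM in IMCD. CNT, CCD and OMCD did not overlap, and the IMCD mice lay within the OMCD range. None of the steps of Aqp2 was called: the differences were 1.19 (SE 0.47, adjusted p 0.355) from CNT to CCD, 0.91 (SE 0.43, adjusted p 0.107) to OMCD and 0.06 (SE 0.49, adjusted p 0.951) to IMCD by limma. Mean levels were 2.26-fold higher in CCD than in CNT and 1.91-fold higher in OMCD than in CCD.

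Aqp3 was high as far as OMCD and lower in IMCD. It was at 3954, 3663, 3841, 4273 and 4312 TPM in CCD, at 5246, 5886, 4897 and 4531 TPM in OMCD and at 469, 260 and 422 TPM in IMCD. The OMCD mice were above every CCD mouse, and the IMCD mice lay below every mouse of CNT, CCD and OMCD. The fall from OMCD to IMCD was 3.83 on the log2 scale (SE 0.23, adjusted p 3.92e-18 by limma), 13.4-fold in mean TPM, whereas the differences from CNT to CCD (0.80, SE 0.22, adjusted p 0.0453, under the required size) and from CCD to OMCD (0.35, SE 0.20, adjusted p 0.191) were not called.

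Aqp4 rose at each step as far as OMCD. It was at 82.8, 51, 70.9, 81.2 and 58 TPM in CCD, at 516, 728, 554 and 562 TPM in OMCD and at 585, 544 and 627 TPM in IMCD. CNT, CCD and OMCD were apart, and OMCD and IMCD overlapped. It rose by 2.31 from CNT to CCD (SE 0.25, adjusted p 6.66e-09 by limma) and by 3.12 from CCD to OMCD (SE 0.23, adjusted p 1.01e-14), 5.07-fold and 8.58-fold in mean TPM, and differed by -0.01 (SE 0.26) from OMCD to IMCD.

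Aqp6, the intercalated cell member, was highest in OMCD and near 0 in IMCD. It was at 130, 148, 156, 146 and 157 TPM in CCD, at 634, 563, 719 and 748 TPM in OMCD and at 0.673, 0.0367 and 0.163 TPM in IMCD. It rose by 2.16 from CCD to OMCD (SE 0.12, adjusted p 3.36e-19 by limma) and fell by 9.10 from OMCD to IMCD (SE 0.13, adjusted p 1.98e-41). The anion exchanger Slc4a1 of acid-secreting intercalated cells ran beside it, at 445 to 558 TPM in CCD, 1334 to 1836 TPM in OMCD and 0.01 to 0.753 TPM in IMCD. The 7 intercalated cell markers together did not, their sum being 4821 to 6204 TPM in CCD and 3303 to 4564 TPM in OMCD. Slc26a4, of base-secreting intercalated cells, was at 1769 TPM in CCD and 4.40 TPM in OMCD on average.

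Counted over the 9 tested members, 1 was called from CNT to CCD (Aqp4, higher), where 1.12% of all genes were called. The member count for that pair was higher under quantile normalization and with all samples as independent. The share of all genes called under those settings is not given, so no result about the members is drawn from this. From CCD to OMCD 3 were called, Aqp4 and Aqp6 higher and Aqp11 lower, where 12.1% of all genes were. From OMCD to IMCD 4 were called, Aqp5 higher and Aqp3, Aqp6 and Aqp11 lower, where 18.6% were, and from CCD to IMCD 5, Aqp4 and Aqp5 higher and the same Aqp3, Aqp6 and Aqp11 lower, where 16.3% were. With a pseudocount of 5 the calls of Aqp5 and Aqp11 from OMCD to IMCD ended. Aqp11 was at 9.27 to 12.7 TPM in CCD, 2.64 to 6.59 TPM in OMCD and 0.787 to 1.52 TPM in IMCD. Its call from CCD to OMCD (-1.08, SE 0.34, adjusted p 0.0155 by limma) ended without OMCD mouse 1 (-0.95, adjusted p 0.0669) or mouse 2 (-0.90, adjusted p 0.068). Its call from OMCD to IMCD (-1.36, SE 0.39, adjusted p 0.00545) ended under quantile normalization (-0.52, adjusted p 0.356).

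The proportion of Aqp3 to Aqp2, formed within each mouse, had a lower mean at each step. The ratio Aqp3:Aqp2 was 0.384, 0.367 and 0.38 in CNT, 0.232, 0.298, 0.304, 0.31 and 0.301 in CCD, 0.179, 0.169, 0.206 and 0.236 in OMCD and 0.0172, 0.00879 and 0.0167 in IMCD. The CNT mice were above all CCD mice, CCD and OMCD overlapped by CCD mouse 1 and OMCD mouse 4, and IMCD lay far below. The geometric mean fell 1.31-fold from CNT to CCD (two-sided exact permutation p = 0.0357), 1.47-fold to OMCD (p = 0.0317) and 14.4-fold to IMCD (p = 0.0571, the smallest possible with 4 and 3 mice).

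Aqp4 moved against Aqp2 in the other direction as far as OMCD. The ratio Aqp4:Aqp2 was 0.00165, 0.00279 and 0.00194 in CNT, 0.00405 to 0.00589 in CCD, 0.0176, 0.0209, 0.0233 and 0.0293 in OMCD and 0.0214, 0.0184 and 0.0248 in IMCD. It was 2.34-fold higher in CCD than in CNT (exact permutation p = 0.0357) and 4.61-fold higher in OMCD than in CCD (exact permutation p = 0.0159, the smallest possible with 5 and 4 mice). OMCD and IMCD overlapped, with geometric means of 0.0224 and 0.0214 (exact permutation p = 0.857).

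Of the 3 ratios that could be followed into IMCD, that of the basolateral pair Aqp3 and Aqp4 moved farthest from CCD to IMCD. This follows from the other ratios, since Aqp3:Aqp4 is Aqp3:Aqp2 divided by Aqp4:Aqp2. From CCD to IMCD, Aqp3:Aqp2 fell 21.2-fold and Aqp4:Aqp2 rose 4.4-fold. Over the step from OMCD to IMCD alone, Aqp3:Aqp2 moved slightly farther, 14.4-fold against 13.8-fold. Aqp6:Aqp2 was not formed in IMCD because Aqp6 was under 1 TPM there. There were 233, 131 and 196 Aqp3 transcripts per Aqp4 transcript in CNT, 47.8 to 74.4 in CCD, 10.2, 8.09, 8.83 and 8.06 in OMCD and 0.801, 0.477 and 0.673 in IMCD. The 4 groups did not overlap, and Aqp4 exceeded Aqp3 in 3 of 3 IMCD mice and in no mouse of the other 3 groups (0 of 12). The geometric mean fell 3.07-fold, 6.77-fold and 13.8-fold at the 3 steps (exact permutation p = 0.0357, 0.0159 and 0.0571) and 93.1-fold from CCD to IMCD (exact permutation p = 0.0357).

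Aqp6:Aqp2 did not run in 1 direction. It was 0.0187, 0.0153 and 0.0184 in CNT, 0.00762 to 0.0124 in CCD and 0.0216, 0.0162, 0.0302 and 0.039 in OMCD. CCD lay below both neighbours without overlap. The ratio fell 1.64-fold from CNT to CCD and was 2.39-fold higher in OMCD (exact permutation p = 0.0357 and 0.0159). In IMCD Aqp6 was under 1 TPM in 3 of 3 mice, so no ratio is given.

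**Figure D5:**
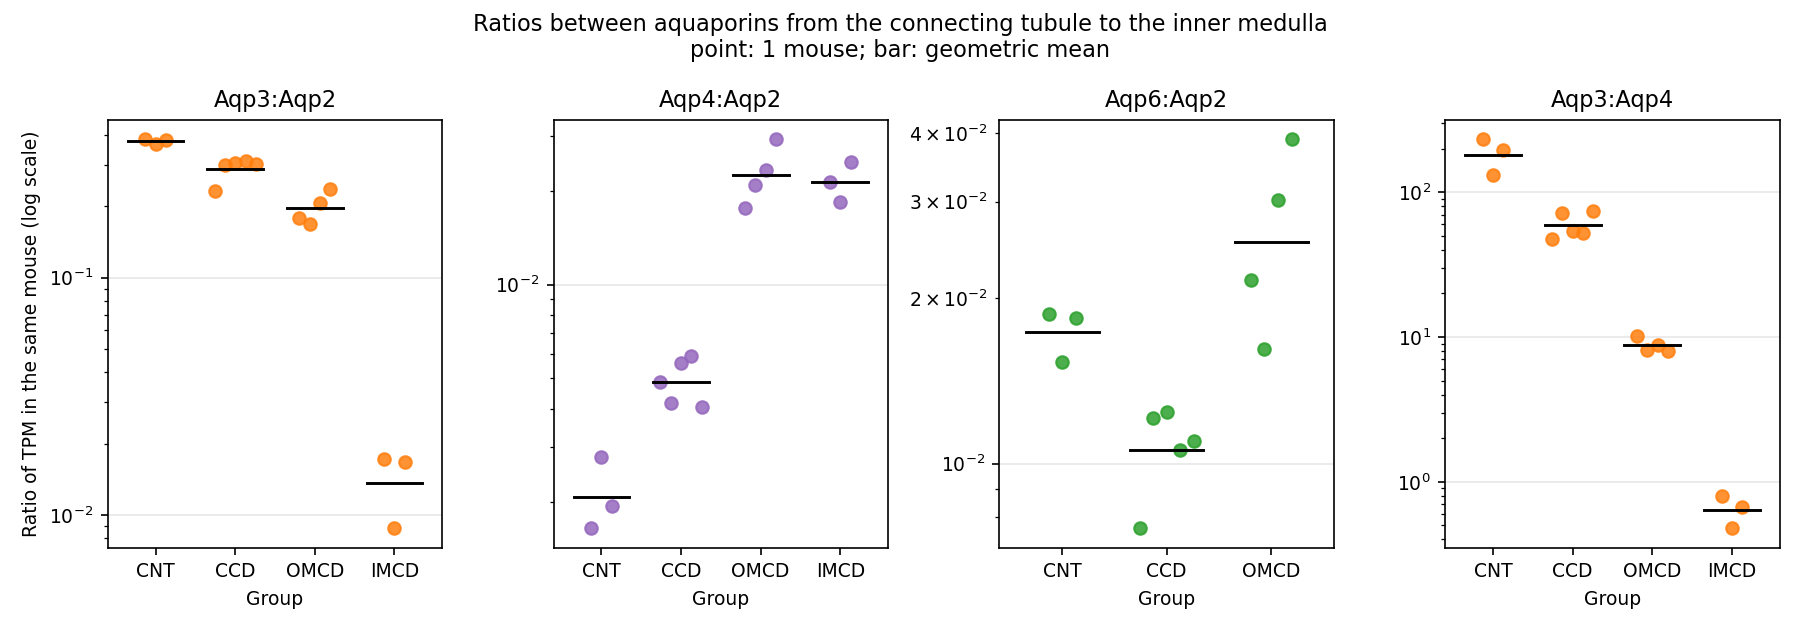
Ratios between aquaporins from CNT to IMCD on log axes, each point being 1 mouse and each bar the geometric mean. Aqp3:Aqp2 drops from 0.196 in OMCD to 0.0136 in IMCD, Aqp4:Aqp2 levels off at 0.0224 and 0.0214, Aqp6:Aqp2 dips to 0.0106 in CCD, and Aqp3:Aqp4 falls at every step from 182 to 0.636.

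Over the whole family of 23 ratio tests, 19 had mice that did not overlap and gave the smallest p their numbers allow, from 0.0159 to 0.1. The tests are not independent, since Aqp3:Aqp4 and Aqp7:Aqp11 are quotients of other ratios in the family. After Benjamini-Hochberg adjustment over the 23, 0 were below 0.05 and the lowest adjusted p was 0.0548. Before adjustment 15 of the 23 had a p under 0.05. Adjusted p was 0.0548 for the 15 and 0.0773 to 0.857 for the others. The fit across all genes with limma, planned as the main test of ratios, called 12 of the 14 collecting duct and 7 of the 9 proximal tests. Its p-values are not used here, because the variation of the reference aquaporin enters every gene's ratio, and such fits called from 1.25% to 99.8% of all genes. An adjusted p above the threshold does not show that ratios were alike. Pieces of 1 mouse give a second view of the spread: in OMCD the 3 pairs of pieces differed by a median of 0.0198 in log2 of Aqp3:Aqp2 and the 6 pairs of mice by 0.241, and in IMCD the 9 pairs of pieces differed by 0.343 (at most 1.33) and the 3 pairs of mice by 0.925. In CNT and CCD pieces differed no less than mice, by 0.0544 against 0.0485 and by 0.123 against 0.048.

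The remaining members were near the floor. Aqp5, a water channel of glands, reached 3.29, 5.76 and 5.79 TPM in IMCD against 0.25 to 0.59 TPM in the OMCD mice (1.82, SE 0.28, adjusted p 8.51e-07 by limma). With a pseudocount of 5, Aqp5 fell under the required size, at 0.8 from OMCD to IMCD and 0.79 from CCD to IMCD. Its ratio to its chromosomal neighbour Aqp2 in the IMCD mice was 0.00012, 0.000195 and 0.000229, and its share of the family was 0.0175% ± 0.00535. Aqp9 had its highest mean in GL (2.52 ± 0.535 TPM) and was next highest in DTL1 (2.15 ± 1.62 TPM), both groups with a high receptor gene background, whose part in these levels was not tested, and its mice overlapped between those groups. Aqp8 was highest in PTS2, at 1.3, 1.03, 0.39, 0.315 and 0.11 TPM, and was listed at 0 in every sample of PTS3, ATL and MTAL. Of the 2 relatives outside the members, Aqp12 reached 3.67 ± 4.98 TPM in DTL1, with 0.69 to 9.42 TPM over its mice, and Mip, the lens aquaporin, reached no group mean above 0.407 TPM.

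For the 7 members with a group mean of at least 10 TPM, the 3 genes with the most similar profile were sought among 12058 genes that also reached 10 TPM. Likeness was Pearson's r over the 15 group means of log2(TPM + 1), a description over 15 points that share libraries. Aqp6 had the closest companions, the transcription factor Dmrt2 (r = 0.992), Slc4a1 (0.987) and Trav3-4 (0.974), each highest in OMCD. Aqp7 was followed by Hnf4a, a nuclear receptor of the proximal tubule (0.981), the ascorbate transporter Slc23a1 (0.979) and Nlrp6 (0.979). Aqp1 was followed by the heparan sulfate sulfotransferase Hs6st2 (0.965), the Wnt antagonist Frzb (0.944) and the metal transporter Slc39a8 (0.93). Aqp2 had Slc9a4, a sodium proton exchanger (0.961), the BMP receptor Bmpr1b (0.948) and Nhlrc4 (0.945). Aqp11 had Syne4 (0.959), Slc25a21 (0.953) and Apeh (0.948), and Aqp3 had Sesn2 (0.934), the proton pump subunit Atp6v0d1 (0.928) and Tmem64 (0.921). Aqp4 had the loosest fit, with Wnt9b (0.878), Elf5 (0.876) and Cep85 (0.848).

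Genes of vasopressin signalling and AQP2 control were described from a list of 20, which were all tested. From DCT to CNT, where 5.22% of all genes were called, 5 of 20 rose and 0 fell: the vasopressin receptors Avpr2 (3.98, SE 0.33, adjusted p 6.86e-13 by limma) and Avpr1a (2.57, SE 0.30, adjusted p 7.43e-09), and the transcription factors Gata2 (3.57), Elf5 (1.69) and Elf3 (1.4). From CNT to CCD, 1 rose (Elf5, 1.80) and 0 fell, beside 1.12% of all genes. From CCD to OMCD, 2 rose (Elf5, 2.06, and Nfat5, the tonicity factor, 1.12) and Avpr1a fell by 2.36. That count of 3 of 20 is near the background of 12.1%. From OMCD to IMCD, where 18.6% of all genes were called, 2 rose (Elf5, 1.34, and Elf3, 1.32) and 9 fell, the median of the list being -0.77 beside -0.32 for all genes. Avpr1a fell by 5.08 there, and the phosphodiesterases Pde4b and Pde4d, which break down cAMP, fell by 2.96 and 2.37. Avpr2 itself was at 729 to 1245 TPM in CCD, 961 to 1685 TPM in OMCD and 719 to 1289 TPM in IMCD, overlapping throughout, while Elf5 had group means of 2.297, 10.65, 46.12 and 120.9 TPM from CNT to IMCD.

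Of 13 genes for AQP2 trafficking and turnover, 0 were called by limma from CNT to CCD and 0 from CCD to OMCD, with 2 and 4 of them at an unadjusted p under 0.05. Of all genes, 1.12% and 12.1% were called in those pairs. From OMCD to IMCD 1 rose and 4 fell, beside 18.6% of all genes called, with a list median of -0.57 beside -0.32 for all genes. The ubiquitin ligase Nedd4l fell by 2.72 (SE 0.15, adjusted p 8.56e-20 by limma), the motor Myo5b by 1.5 and the vesicle protein Vamp2 by 1.07, and Rab11fip2 rose by 1.17. Of 9 genes for glycerol handling, set beside the glycerol channels Aqp3 and Aqp7, 3 rose and 1 fell from PTS1 to PTS2, where 9.57% of all genes were called, with a median of 0.57 beside -0.15. By size of the difference, the genes called were Gpat3, Gpd2, Mgll and Gk, the last being the smallest. Glycerol kinase Gk rose by 1.47 (SE 0.18, adjusted p 1.50e-08 by limma), from 186 to 513 TPM, over the step where Aqp7 rose and Aqp3 was lower. From PTS2 to PTS3, where Aqp3 reached 0, 0 of the 9 rose and 4 fell, beside 4.7% of all genes called: Gpd1, which makes glycerol 3-phosphate, fell by 1.06 and the lipase Lipe fell by 1.78.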

How the data were processed

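The authors deposited 1 table of TPM values (abundance scaled by transcript length and to a fixed total) for 54532 genes in 93 samples, 87 of tubules and 6 of glomeruli, and the columns sum to 999998.6 to 1000190.3. Per the labels' protocols, RNA was extracted with Direct-zol kits, turned into cDNA with a SMARTer ultra-low input kit and made into Nextera XT libraries. The submitters' processing notes name STAR 2.5.4a, RSEM 1.3.0, Cell Ranger 3.0.2 and Seurat, without their roles. The genome build and annotation are not given in the sources used here. Glomerulus columns carry 1 decimal and tubule columns 2. TPM keep no depth, so no counting error can be given. The 3 single-cell samples were not analysed here. The name of 1 PTS2 column matched no title and was kept as an unnumbered mouse of its group. For levels, p-values set a difference against the spread between mice, which the limma fit pools over all 15 groups. It is not the spread of the 2 compared groups alone. Exact permutation p-values of ratios use only the mice of the 2 groups compared.

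Pieces of 1 mouse number within a segment were averaged, as TPM for printed levels, shares and ratios and for the permutation tests of ratios. For limma they were averaged on the log scale. Levels were tested with limma 3.58.1 in R 4.3.3 (lmFit, then eBayes with a trend) on log2(TPM + 1) over genes at 1 TPM or more in at least 3 mice, 33793 genes, with 1 fit over all 15 groups, an F-test and 16 contrasts. Differences are on the log2(TPM + 1) scale, which understates changes of low genes. A call needed a Benjamini-Hochberg adjusted p under 0.05 over all genes and a log2 difference of at least 1. On simulated data with 200 changed genes for the contrast of CCD with OMCD, 82.5%, 94.5% and 98.5% of log2 changes of 1.5, 2 and 3 were recovered. For OMCD with IMCD it was 75%, 91% and 97%, and for PTS1 with PTS2 77%, 95% and 98.5%. The limma fit of ratios to Aqp2, which gave no calls used here, recovered 60.5%, 93.5% and 99% for CCD with OMCD and 43.5%, 84% and 97.5% for OMCD with IMCD.

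Ratios were compared over mice by two-sided exact permutation tests of their log2 values, adjusted over 23 tests. The plan had named limma on ratios across all genes as the main test, with the permutation test beside it. The permutation test was given precedence after the results of both were known, because the reference gene's variation is shared by every ratio in the limma fit. Both outcomes are reported. A ratio was formed only where every mouse of the group held 1 TPM of both genes. The Aqp6:Aqp2 comparisons with IMCD were taken out of the family under this planned rule after their values had been seen. Summed levels are given without the exact test that had been planned.

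The members and the gene lists were chosen with earlier results of these data known. All 10 members are described, and genes most like a member are the 3 with the highest Pearson r over group means among genes reaching 10 TPM. Genes of the pathway lists are named from those called. Alternatives were other pseudocounts, filters and scalings, pieces as independent samples, a replicate block and leaving out each mouse. Permutation tests used scipy 1.17.1 and numpy 2.4.6 under Python 3.11.15, with pandas 2.3.3 for tables and matplotlib 3.10.9 for plots.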

Additional observations from a re-analysis of the deposited data

Results flagged for a closer look

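Of 41 values in groups of 4 or 5 mice, 3 had 1 mouse whose distance from the rest passed Dixon's 95% limit, a rule that chance meets in about 1 of 20 groups. All 3 lay in CCD. Mouse 1 had an Aqp2 share of 80.3% where the other 4 had 75.3% to 76%, and an Aqp3:Aqp2 ratio of 23.2% where the others had 29.8% to 31%. These values describe the same mouse and the same 2 transcripts. Mouse 4 had an Aqp11 level of 12.7 TPM where the others had 9.27 to 10.2 TPM.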

How the results depend on the processing

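The members tested differed among the groups under every alternative that was run: 9 as a rule, 7 with a filter of 5 TPM in 3 mice and 10 with no filter. In the reported fit 93.9% of all genes passed that F-test, and the share under the alternatives is not given. These counts therefore show nothing particular to the members. Counts of members called between groups moved past 1.5 times in these cases. With a pseudocount of 0.1 they were 2 from DTL3 to ATL and 6 from ATL to MTAL, against 1 and 1 in the reported fit. With a pseudocount of 5 they were 1 from DTL2 to DTL3, 0 from MTAL to CTAL and 2 from OMCD to IMCD, against 3, 2 and 4. From ATL to MTAL the count was 2 under median ratio rescaling and 2 under quantile normalization. From CNT to CCD it was 2 under quantile normalization and 2 with all samples as independent. With ATL mice 2 and 3 alone, an alternative chosen after seeing the data, it was 4 from DTL3 to ATL and 0 from ATL to MTAL, where 31% and 16.2% of all genes were called. Leaving out 1 mouse gave 1 to 2 from DTL3 to ATL (2 without DTL3 mouse 2 or ATL mouse 4) and 1 to 2 from ATL to MTAL (2 without ATL mouse 3). For the other settings the share of all genes called is not given, so these counts do not show whether the members moved apart from all genes. The cause of these moves was not tested.

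Mouse numbers showed no pairing of the samples in the median. Mice of the same number in different segments deviated with a median r of 0.00018 over 290 pairs, against 0.00037 over 968 pairs of different numbers. An r over 0.1 was found in 19 of the 290 and in 31 of the 968. With a replicate block on the number, 53 of the 54 called member differences kept their call, that of Aqp11 from DTL1 to DTL2 was -0.91, and the count from DTL3 to ATL was 2. A pseudocount of 5 ended 14 of the 54 calls: Aqp2 in PTS1-PTS2, PTS3-DTL2 and MTAL-CTAL, Aqp3 in MTAL-CTAL, Aqp5 in DTL2-DTL3, OMCD-IMCD and CCD-IMCD, Aqp7 in DTL2-DTL3, Aqp9 in GL-PTS1 and PTS3-DTL1, and Aqp11 in DTL1-DTL2, CTAL-DCT, CCD-OMCD and OMCD-IMCD. Quantile normalization ended 5 (Aqp9 in PTS3-DTL1, Aqp2 in PTS3-DTL2, Aqp11 in DTL1-DTL2 and OMCD-IMCD, and Aqp5 in DTL2-DTL3) and turned 1, Aqp9 from GL to PTS1, to 0.13. Median ratio rescaling ended 4 (Aqp9 in GL-PTS1, Aqp2 in PTS3-DTL2, Aqp11 in DTL1-DTL2 and Aqp5 in DTL2-DTL3), a pseudocount of 0.1 ended 3 (Aqp11 in DTL1-DTL2, CTAL-DCT and CCD-OMCD), no filter ended 1 (Aqp2 in PTS3-DTL2) and all samples as independent ended 1 (Aqp11 in CCD-OMCD).

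The number of ratio tests under an adjusted p of 0.05 depended on the test. It was 0 in the collecting duct and 0 in the proximal tubule by the exact permutation test, 12 and 7 with limma, 12 and 7 with limma and a replicate block, and 13 and 9 with the permutation test over all samples as independent. The OMCD to IMCD difference of Aqp4:Aqp2 (log2 -0.07) was 0.03 with limma and the block, and leaving out 1 mouse gave -0.18 to 0.06, being 0.06 without OMCD mouse 4 and 0.04 without IMCD mouse 2. The other ratios kept their direction. Counting Aqp12 and Mip into the family moved the glomerular share of Aqp1 from 48.6% to 46.1%. Depth is unknown, so levels near 1 TPM cannot be given a detection limit, and 3 mice against 3 cannot give an exact p below 0.1.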
